A study of Homo sapiens with 15 samples.

Results

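FGF9, FGFRL1, FGF2 and the receptors FGFR1, FGFR2, FGFR3 and FGFR4 were followed over dual-color whole human genome arrays on which 5 miRNAs were each overexpressed or suppressed. These 7 genes, of 30478 gene names on the array, were taken by the gene name of their probes, which gave 16 probes of 40988, and all 16 were among the 31345 probes tested. The genes were chosen from the ratios on the miR-574-3p arrays, where FGF9 and FGFRL1 moved in opposite directions, so the values of FGF9 and FGFRL1 on those arrays are a description and carry no test. FGFRL1 and FGFR2 to FGFR4 had 2, 3, 2 and 1 probes, FGFR1 had 6, and FGF9 and FGF2 had 1 each.

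Fibroblast growth factors are secreted ligands that bind receptor tyrosine kinases together with heparan sulfate on the cell surface. A bound receptor phosphorylates the adaptor FRS2, which recruits GRB2 and SOS and activates RAS and the ERK kinases. FGFRL1 binds the ligands but lacks the kinase domain of the other receptors. FGF9 is known as a ligand of the developing lung epithelium and mesothelium, and FGF2 as a ligand that lung cancer cells can use in an autocrine loop.

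All samples were A549 cells, an established line from a human lung adenocarcinoma. A precursor oligonucleotide of miR-181d, miR-766, miR-574-3p, miR-629* or miR-565 was transfected at 20 nM to overexpress the miRNA, and a locked nucleic acid antagomir against the same miRNA at 20 nM to suppress it, and RNA was taken after 24 h. On each of 3 arrays per miRNA, RNA of the overexpressing cells was labeled with Cy5 and RNA of the antagomir cells with Cy3. No dye was swapped and no mock-transfected RNA was hybridized, so the dye and the treatment cannot be told apart within a miRNA, and a ratio does not say which of the 2 RNAs departed from untransfected cells. The labels do not say whether the 3 arrays came from separate transfections, so p-values measure the spread between arrays, which may be technical. The line was checked against its markers: KRT8, KRT18, KRT19, CDH1, AKR1B10, AKR1C1, ALDH1A1, ALDH3A1 and NQO1 were well above background on all 15 arrays, and the leukocyte marker PTPRC, the endothelial markers PECAM1 and CDH5 and the fibroblast marker COL3A1 on 0. Other markers of those cell types did give signal. CD3E, CD14 and COL1A1 were well above background on all 15 arrays in both channels, with median signals of 34.5 to 159, VWF was on 9 by Cy3 and 15 by Cy5, and DCN on 1 by Cy3 and 0 by Cy5. The part of these signals in the results was not tested. Of the lung alveolar markers, SFTPC was well above background on all 15 arrays, with medians of 76.7 by Cy3 and 79.1 by Cy5. SFTPB was on 5 arrays by Cy3 and 9 by Cy5. EPCAM, AKR1C2 and NKX2-1 had no probe under those names.

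Between 68.1% and 75.5% of probes were well above background in a channel of an array. The array miR-565 replicate 1 stood apart from the rest. The SD of its log2 ratios over probes was 0.78, against 0.20 to 0.39 on the other arrays, and its ratios correlated with those of its own replicates at r = 0.05 and 0.26. Because all arrays share one estimate of the spread, calls are given with and without it. The arrays lay on 4 slides. miR-766 had a slide of its own, where slide and miRNA cannot be told apart, and the miR-574-3p arrays shared one slide with miR-565 and one with miR-629*.

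miR-574-3p is the miRNA on whose arrays FGF9 and FGFRL1 stood apart, so its mature sequence is shown with a stretch of the FGFRL1 probe that shares letters with it. The miRNA lies on the plus strand at chr4:38868092-38868113 (RefSeq, GRCh38.p14), and the capitals mark its seed, bases 2 to 8. Of the 5 miRNAs, 3 were matched by name in the RefSeq table. The FGFRL1 stretch is bases 28 to 57 of the 60-base probe A_23_P92349, which the array design places at chr4:1009966-1009995 of NCBI36, and the capitals mark the shared run.
hsa-miR-574-3p: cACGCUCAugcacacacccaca
FGFRL1 probe stretch: ctgtctggaCATGCACACACgtgcagatat
The run of 11 bases equals bases 7 to 17 of the miRNA, with T in place of U, in the same sense and not as a complement. The run was found after the ratios had been seen, part of it is a repeat of CA, and its part in the ratio was not tested. A run of at least 11 bases of miR-574-3p in the same sense was held by 6 of the 31345 tested probes, 0.0191% of them. The other 5 had log2 ratios from -1.43 to 0.04 on the miR-574-3p arrays, and their antagomir log2 signals differed from the mean of the other miRNAs by -0.11 to 0.51, against -2.59 for FGFRL1. The longest run of the FGF9 probe was 6 bases in either sense, which 13.9% of the tested probes reached in the same sense and 15.4% as a complement. That of the second FGFRL1 probe, A_24_P46212, was 4 bases in either sense.

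FGF9 was lower in miR-574-3p-overexpressing cells than in antagomir cells on all 3 arrays. Its only probe, A_23_P105803, lies on chromosome 13 at 21173914 to 21173973 of NCBI36. The log2 ratio of overexpressing over antagomir signal was -3.31, -3.37 and -2.21 on replicates 1, 2 and 3, with a mean of -2.96 ± 0.66 (SD, n = 3). The signal in the antagomir channel was 127.8, 120.5 and 41.8, and in the overexpressing channel 12.9, 11.7 and 9.05. In bulk RNA, less RNA per cell and fewer cells with the transcript cannot be told apart.

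The high FGF9 signal was in the antagomir cells of miR-574-3p and in no other RNA of the series. Over the 12 arrays without miR-574-3p the signal ran from 1.94 to 13.4 by Cy3 and from 2.05 to 17.3 by Cy5, so the overexpressing cells of miR-574-3p lay within the range of the others. FGF9 was well above background by Cy3 on 6 of 15 arrays and by Cy5 on 7 of 15. The mean antagomir signal was 96.7 ± 47.7 (SD, n = 3) on miR-574-3p and 11.98 ± 2.17 on miR-766, where 3 and 2 of 3 arrays were well above background. It was 7.14 ± 1.87 on miR-629*, 5.55 ± 3.44 on miR-181d and 4.89 ± 2.55 on miR-565, where 1, 0 and 0 of 3 arrays were, so no order is read among these.

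As no antagomir array of miR-565 or miR-181d was well above background for FGF9, only a bound can be given there. The antagomir signal of miR-574-3p was at least 9.10-fold higher than that of miR-565 and at least 9.89-fold higher than that of miR-181d, where the dim arrays were set to the higher of their own value and the lowest signal well above background, on loess-normalized and between-array normalized channels. In the overexpressing channel no miR-629* array was well above background, and miR-574-3p was at least 1.76-fold higher. On the shared slides, the ratio of miR-574-3p minus that of the other miRNA came to -3.78 against miR-565 (2 arrays against 2) and to -1.58 against miR-629* (1 against 3), but most of the FGF9 signals of these other miRNAs were not well above background, so the sizes are not measured differences.

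**Figure D1:**
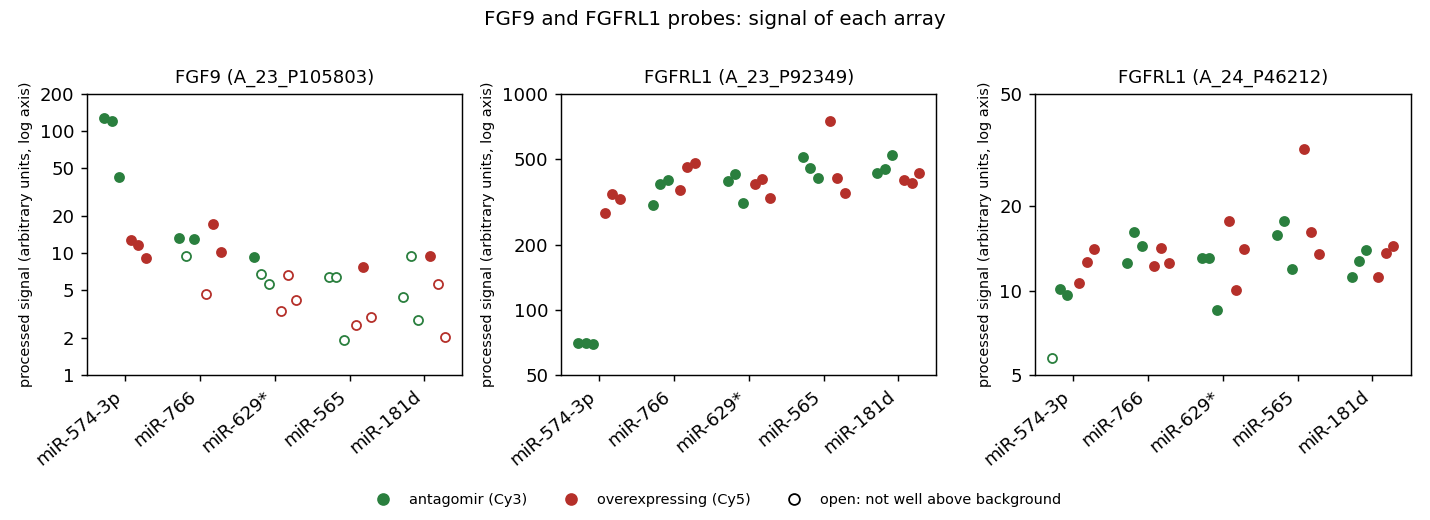
Processed signal (log axis, arbitrary units) of the FGF9 probe and both FGFRL1 probes in the antagomir channel (Cy3) and the overexpressing channel (Cy5), 1 point per array, with open points for signals not well above background. The 3 antagomir points of miR-574-3p sit at 41.8 to 127.8 for FGF9, above all others, and at 70.1 to 70.8 for FGFRL1 A_23_P92349, below all others.

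FGFRL1 moved the other way. Its probe A_23_P92349, on chromosome 4 at 1009939 to 1009998 of NCBI36, had log2 ratios of 1.99, 2.28 and 2.22 on the miR-574-3p arrays, a mean of 2.16 ± 0.15 (SD, n = 3). The antagomir signal was 70.8, 70.5 and 70.1, and the overexpressing signal 281.4, 343.1 and 326.6. The low signal was thus in the antagomir cells.

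On the 12 other arrays, the same probe read 306.6 to 520.1 by Cy3 (antagomir) and 330.5 to 748.5 by Cy5 (overexpressing). The antagomir signals of miR-574-3p lay far below that range, and 2 of its 3 overexpressing signals lay just below it. Ordered by antagomir signal, miR-181d had 466.6 ± 47.0 (SD, n = 3), miR-565 457.2 ± 50.3, miR-629* 379.1 ± 58.5, miR-766 362.6 ± 49.1 and miR-574-3p 70.5 ± 0.34. Neighbors among the first 4 overlapped in mean ± SD, and miR-574-3p overlapped with none. Against the mean of the other 4 miRNAs in the same dye, the log2 signal was lower by Cy3 (-2.59, SE 0.05) and also by Cy5 (-0.44, SE 0.11), and without miR-565 replicate 1 by -2.59 and -0.39. The slide-matched differences of the ratio were 2.33 against miR-565 and 2.24 against miR-629*.

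The second FGFRL1 probe, A_24_P46212, at 1008729 to 1008788 of the same chromosome, was dim and moved less. Its log2 ratios on the miR-574-3p arrays were 0.88, 0.32 and 0.54, a mean of 0.58 ± 0.28 (SD, n = 3). Its antagomir signal averaged 8.52 ± 2.39 there, and its log2 signal differed from the mean of the other miRNAs by -0.69 (SE 0.12) in Cy3 and by -0.25 (SE 0.22) in Cy5. The probes of the gene therefore shared the direction and not the size, and the dim one was well above background by Cy3 on 2 of the 3 arrays.

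The choice of FGF9 and FGFRL1 did not use the other 12 arrays, and there neither gene passed the test of the ratio. On the arrays of miR-181d, miR-766, miR-629* and miR-565 the FGF9 log2 ratio averaged -0.04, -0.35, -0.63 and -0.14, with limma adjusted p of 0.979, 0.818, 0.481 and 0.863. FGFRL1 averaged -0.19, 0.25, -0.02 and 0.06, with limma adjusted p of 0.403, 0.349, 0.949 and 0.748. Without miR-565 replicate 1, FGFRL1 was called higher on miR-766 (limma adjusted p = 0.0156; log2 ratios 0.23, 0.26 and 0.27) and lower on miR-181d (limma adjusted p = 0.0331; -0.10, -0.20 and -0.26). With all arrays and the slide as a block, both were also called (0.25, limma adjusted p = 0.0239, and -0.66, limma adjusted p = 0.0011). The miR-181d arrays shared their slide only with miR-565 replicate 1, where FGFRL1 was 0.56, so the -0.66 rests on that array. miR-766 had a slide of its own, and the block left its 0.25 unchanged. The slide block is thus no independent support for these calls. FGF9 was called on none of these miRNAs in any of these fits. It was well above background on only 3 of the 12 arrays by Cy3 and 4 by Cy5. The SE of its mean ratio was 0.52 with all arrays, so the absence of a call says little.

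**Figure D2:**
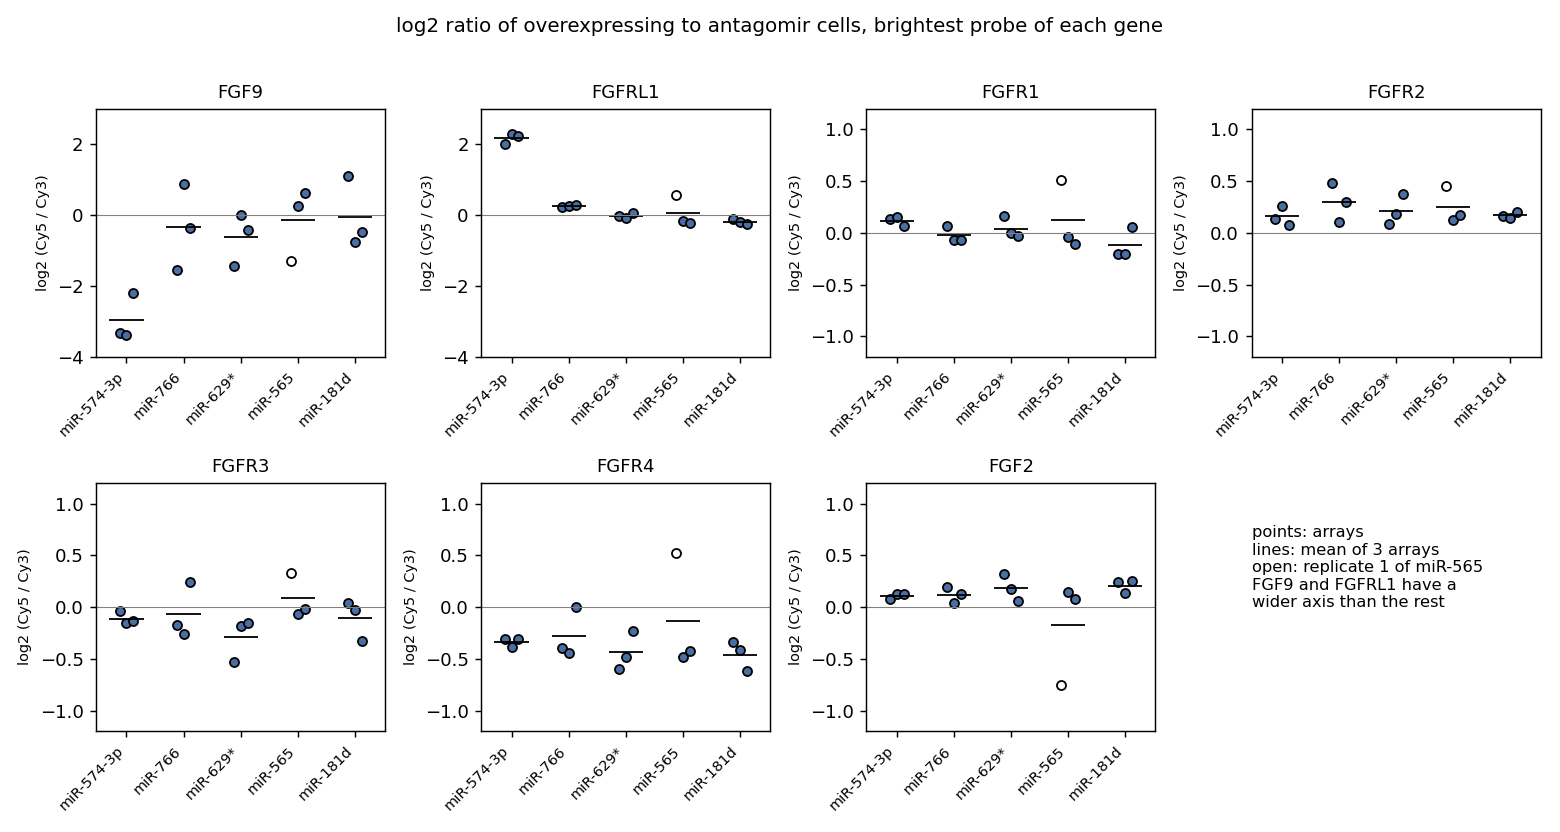
Log2 ratio of overexpressing over antagomir signal of the brightest probe of each gene on each array, by miRNA, with a line at the mean of 3 arrays and open points for miR-565 replicate 1. FGF9 (mean -2.96) and FGFRL1 (mean 2.16) leave the range of their other arrays on miR-574-3p only, while the other 5 genes stay between -0.75 and 0.52 on all arrays.

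Among the 5 genes that played no part in the choice, none had a ratio that passed the test on any miRNA. On the miR-574-3p arrays 0 of 5 were called by limma at an adjusted p under 0.05, and 0 at an unadjusted p under 0.05, where 3.18% of all tested probes were called. Counting all 7 genes, 0 were called on miR-181d, miR-766, miR-629* and miR-565, against 3.18%, 0.823%, 7.44% and 8.88% of all probes called. At an unadjusted p under 0.05 there were 1, 1, 3 and 1. The shares of all probes are at an adjusted p under 0.05 throughout, and are no background for counts at an unadjusted p. Without miR-565 replicate 1, 1 of 5 was called on miR-574-3p, and 3, 2, 3 and 1 of 7 on miR-181d, miR-766, miR-629* and miR-565, where the background rose to 18.5%, 24.7%, 14.8%, 31.6% and 12%. The share of genes called was thus near that background on miR-574-3p and miR-565, and rests on 2 or 3 genes elsewhere.

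FGFR4, the receptor that in liver answers FGF19 with the co-receptor KLB, was lower in overexpressing cells on most arrays. The log2 ratio of its probe A_23_P92754 was -0.31, -0.38 and -0.31 on miR-574-3p, -0.39, -0.44 and 0.00 on miR-766, -0.59, -0.49 and -0.23 on miR-629*, 0.52, -0.49 and -0.43 on miR-565, and -0.34, -0.42 and -0.62 on miR-181d. It was below 0 on 13 of the 14 arrays other than miR-565 replicate 1, whose value of 0.52 was the only one clearly above 0. With all arrays it passed the test on no miRNA, with limma adjusted p from 0.119 on miR-629* to 0.585 on miR-565. Without that array, limma called it lower on miR-574-3p (-0.34, adjusted p = 0.0335), miR-629* (-0.44, adjusted p = 0.00762), miR-565 (-0.46, adjusted p = 0.0313) and miR-181d (-0.46, adjusted p = 0.00683), and not on miR-766 (-0.28, adjusted p = 0.075). As the mean had the same sign on every miRNA, and the dye was the same on all arrays, a dye effect and a treatment effect cannot be told apart here. The difference of miR-574-3p from the mean of the other 4 was -0.01 (SE 0.18).

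FGFR2, whose epithelial splice form binds FGF7 and FGF10, was higher in overexpressing cells on all 15 arrays by its brightest probe, A_23_P202334, with log2 ratios of 0.08 to 0.48. No miRNA passed the test with all arrays, with limma adjusted p from 0.0783 on miR-565 to 0.377 on miR-574-3p. Without miR-565 replicate 1 it was called on miR-766 (0.29, limma adjusted p = 0.0206) and miR-629* (0.21, limma adjusted p = 0.0411). Of its other probes, A_24_P206624 read 13.6 to 19.3 as means of a miRNA in either channel, and A_23_P303149 was well above background in the antagomir channel on 0 of 15 arrays. These dimmer probes did not share the direction throughout: their ratios were below 0 on 5 and 7 of the 15 arrays. As the dye was the same on all arrays, a dye effect and a treatment effect cannot be told apart for the brightest probe.

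FGF2, the other ligand, read 1023 to 1400 as means of a miRNA and was slightly higher in overexpressing cells. Its log2 ratio was 0.04 to 0.32 on the 14 arrays other than miR-565 replicate 1, where it was -0.75. With all arrays no miRNA passed the test (limma adjusted p 0.353 to 0.749). Without that array it was called on miR-629* (0.18, limma adjusted p = 0.0197) and miR-181d (0.21, limma adjusted p = 0.0139), and its mean on miR-565 turned from -0.18 to 0.11, which was not called. The sign was shared by all 5 miRNAs only without that array.

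FGFR3 and FGFR1 were called on no miRNA by their brightest probes, with or without miR-565 replicate 1. FGFR3, by A_23_P500501, read 983 to 1343 as means of a miRNA and was lower in overexpressing cells on 12 of 15 arrays. Its lowest mean ratio was -0.29 on miR-629* (limma adjusted p = 0.139, and 0.056 without that array). FGFR1, by A_23_P301304, had log2 ratios of -0.21 to 0.16 on the 14 other arrays and 0.51 on miR-565 replicate 1. Dimmer probes were called lower without that array: FGFR3 A_23_P212830 on miR-629* (-0.64, limma adjusted p = 0.00762) and miR-181d (-0.47, limma adjusted p = 0.0327), FGFR1 A_23_P219105 on miR-629* (-0.21, limma adjusted p = 0.0452), miR-565 (-0.41, limma adjusted p = 0.0161) and miR-181d (-0.46, limma adjusted p = 0.00169), and FGFR1 A_24_P4171 on miR-181d (-0.30, limma adjusted p = 0.0201). The probes of FGFR1 and of FGFR3 thus differed in which were called. Without that array, both FGFR3 probes had a mean ratio below 0 on every miRNA. FGFR1 A_23_P301304 and A_23_P219105 differed in sign on miR-629* (0.04 and -0.21).

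The differences between miRNAs cancel a dye effect that all arrays share. Against the mean of the other 4 miRNAs, limma called 0 of the 5 genes for any miRNA, where 0.868% of all probes were called for miR-574-3p, 0.0319% for miR-629*, 0.0829% for miR-565, and 0% each for miR-181d and miR-766. At an unadjusted p under 0.05 there was 1, for miR-565. On miR-574-3p the differences ran from -0.07 (FGFR2) to 0.11 (FGFR1), with SE of 0.10 to 0.18. With the slide as a block, 2 of the 5 were called on miR-574-3p (FGFR1 0.36, limma adjusted p = 0.0158, and FGF2 -0.33, limma adjusted p = 0.0114), 1 on miR-565 and 3 on miR-181d. The absence of calls thus depends on how slides are treated. The miR-181d arrays shared slide 1 only with miR-565 replicate 1 (FGFR1 0.51, FGF2 -0.75), so the slide 1 term behind these calls rests on that array. Without the block, leaving out any 1 array gave 0 calls for every miRNA. The share of all probes called for miR-574-3p was 4.01% without miR-565 replicate 1.

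After normalization, 2 of the 6 FGFR1 probes were called lower in the antagomir channel of miR-574-3p, and the brightest was not. At an unadjusted p under 0.05 there were 3 of the 13 probes of the 5 genes. Relative to the Cy3 signals of the other miRNAs, limma called 2 of the 13, where 8.66% of all probes were called. The 2 calls, both in 1 gene, are too few to set these genes apart from that share. A_23_P219105 read 187.9, 204.4 and 194.7 in the antagomir channel of miR-574-3p and 180.6 to 322.3 on the other arrays, which overlap. After quantile normalization its log2 signal was lower there by -0.37 (SE 0.04, limma adjusted p = 0.000142). A_24_P4171 read 122.4, 131.6 and 120.2 against 107.4 to 179.4, again overlapping, with -0.27 (SE 0.06, limma adjusted p = 0.00807).

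The other 4 FGFR1 probes were not called. The brightest, A_23_P301304, differed by -0.09 (SE 0.05, limma adjusted p = 0.303), and A_23_P372923 by 0.10 (SE 0.07, limma adjusted p = 0.485). The dim probes A_23_P315131 and A_23_P316447 differed by -0.19 (SE 0.12) and -0.20 (SE 0.20). In the overexpressing channel limma called 0 of the 13 probes, with 0 at an unadjusted p under 0.05 and 0% of all probes called. Without miR-565 replicate 1, both FGFR1 calls were still made (limma adjusted p = 0.000454 and 0.00647), with 7.51% of all probes called by Cy3 and 0.00319% by Cy5. The A_24_P4171 call was lost without miR-574-3p replicate 3 (-0.22, limma adjusted p = 0.0699).

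**Figure D3:**
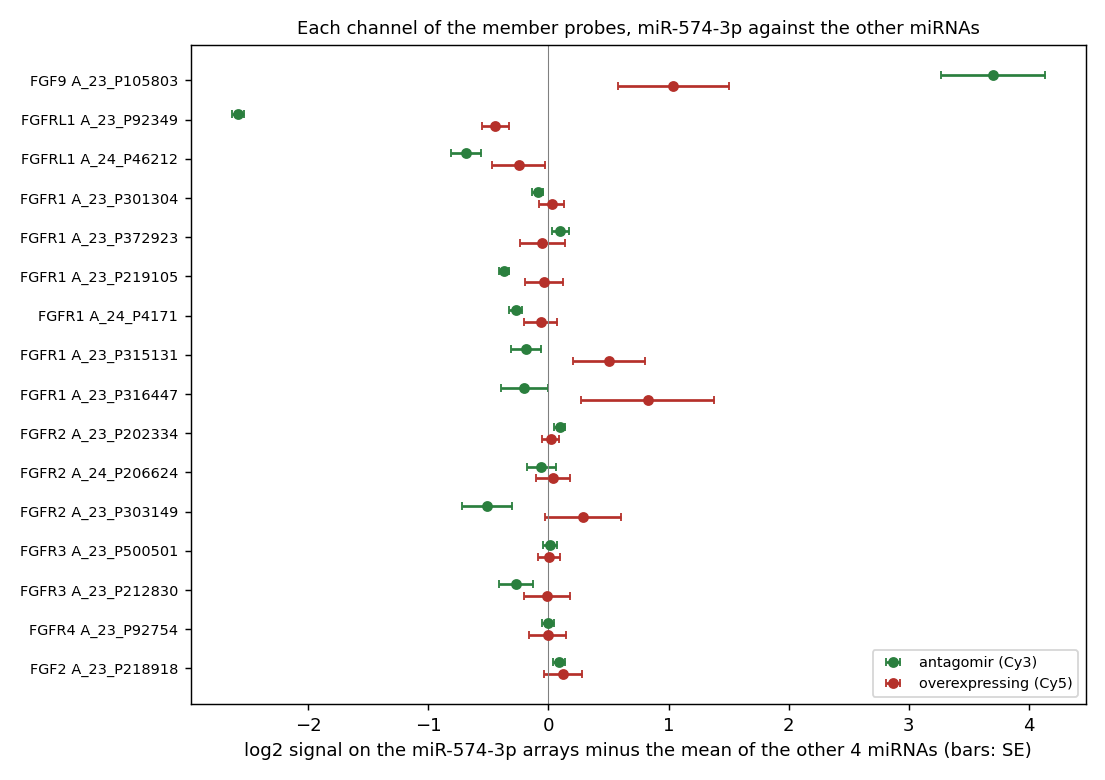
Difference in log2 signal of miR-574-3p from the average of the other 4 miRNAs within a dye, for the 16 probes, in the antagomir and overexpressing channels, with bars of 1 SE. FGF9 (3.70) and FGFRL1 A_23_P92349 (-2.59) are farthest from 0 in the antagomir channel. They were among the values that chose the genes, and the FGF9 size is set by other arrays that were mostly not well above background.

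Differences among the 4 miRNAs other than miR-574-3p could be tested for all 16 probes. For the ratio, limma's F test called 0 of 16, with 1 at an unadjusted p under 0.05 and a lowest adjusted p of 0.747, where 0.0447% of all probes were called. In the overexpressing channel it called 0 of 16, with 1 at an unadjusted p under 0.05, against 0.102% of all probes. In the antagomir channel 9 of 16 were at an unadjusted p under 0.05, a count for which no share of all probes is given. At an adjusted p under 0.05 the test called 2 of 16, against 3.75% of all probes. These were FGFRL1 A_23_P92349 (F = 10.4, adjusted p = 0.0415), whose normalized antagomir signal was lowest on miR-766 among the 4, and FGFR1 A_23_P219105 (F = 14.0, adjusted p = 0.0227). Without miR-565 replicate 1, both were lost (adjusted p = 0.0747 and 0.0589), where 1.81% of probes were called in the antagomir channel and 0.169% each for the ratio and the overexpressing channel. The FGFRL1 call was made in 3 and the FGFR1 call in 11 of the 15 fits that each left out 1 array.

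The probes whose ratios followed FGF9 and FGFRL1 most closely were taken by Pearson r over the 15 arrays, among 19518 candidates, as a description. The 3 most like FGF9 were PSME2, a proteasome activator subunit (r = 0.894), ZNF585A, a zinc finger gene (r = 0.882), and PDE4B, a cAMP phosphodiesterase (r = 0.882). Their ratios on miR-574-3p were -0.59, -0.41 and -0.25, and over the 12 other arrays r was 0.731, 0.791 and 0.648. Among the 3 most like FGFRL1 were MGRN1, a ubiquitin ligase (r = 0.982), and TRIOBP, an actin-binding protein gene (r = 0.981), with ratios of 0.86 and 2.31 on miR-574-3p and r of 0.796 and 0.624 over the 12 others. The antagomir signal of TRIOBP averaged 344 on miR-574-3p and 2085 on the other arrays, against 1710 and 1942 in the overexpressing channel, so TRIOBP, like FGFRL1, had its low signal in the antagomir cells. The longest runs that the TRIOBP probe shared with miR-574-3p were 5 bases in the same sense and 6 as a complement. The 12 other arrays are among the 15 by which the probes were picked, so r over them is no separate check. On those 12, FGF9 was well above background on only 3 by Cy3 and 4 by Cy5. The arrays share slides and dyes, and miR-565 replicate 1 is one of the points.

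The rest of the pathway was followed by 5 gene lists. The genes tested were 6 of 20 other FGF ligands, 16 of 22 co-receptors and binding proteins, 11 of 15 heparan sulfate enzymes, 20 of 21 adaptors and members of the ERK cascade, and 13 of 14 feedback and target genes of ERK. On miR-574-3p limma called 0, 1, 1, 1 and 0 of them, all higher, against 3.18% of all tested probes, and the median log2 ratios of the lists were -0.34, -0.09, 0.00054, -0.01 and 0.09, beside 0.0066 for all tested probes. On miR-766 it called 0 in every list, against 0.823% of all probes.

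FLRT2, a membrane protein that binds FGF receptors, was higher in overexpressing than in antagomir cells of miR-574-3p, with log2 ratios of 0.52, 0.99 and 0.73 and a mean of 0.75 (SE 0.13, limma adjusted p = 0.0115). Its ratio was above 0 on 11 of the 12 other arrays as well, and its difference from the other miRNAs was not called (0.44, limma adjusted p = 0.265). SOS1, the RAS exchange factor that GRB2 recruits, had ratios of 0.42, 0.85 and 0.71 and a mean of 0.66 (limma adjusted p = 0.0133). HS6ST2, a heparan sulfate sulfotransferase, had a mean ratio of 0.39 (limma adjusted p = 0.0482) and differed from the other miRNAs by -0.06, which did not pass (limma adjusted p = 0.955). The SOS1 antagomir signal was 24.4, 20.6 and 21.8 on miR-574-3p and 30.6 to 55.9 on the other arrays, and did not overlap. Its overexpressing signal, 32.6 to 37.3, lay within the 29.8 to 47.3 of the others, so the low signal was in the antagomir cells. Its difference from the other miRNAs was 0.65 (limma adjusted p = 0.0438). The 3 genes were also called without miR-565 replicate 1 (limma adjusted p = 0.00385 for FLRT2, 0.00374 for SOS1 and 0.00938 for HS6ST2). NRAS, a RAS gene, had a ratio on miR-574-3p that differed from the mean of the other miRNAs by -0.32 (limma adjusted p = 0.033). Its ratios were -0.11, -0.09 and -0.12 there, against 0.06 to 0.37 on the other arrays. The ratio itself was not called (-0.11, limma adjusted p = 0.322). NRAS was named after its values had been seen.

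On miR-629* the lists had 1, 1, 1, 2 and 2 genes called higher and 0 lower, on miR-565 1, 1, 2, 3 and 2 higher with 1 lower in the ERK cascade, and on miR-181d 0, 0, 1, 2 and 0 higher, against 7.44%, 8.88% and 3.18% of all probes. EGR1, an early transcriptional target of ERK, had the largest called ratio on miR-629* (0.95, limma adjusted p = 0.0245) and on miR-565 (0.97, limma adjusted p = 0.0228). FRS2, the adaptor of the FGF receptors, had it on miR-181d (0.40, limma adjusted p = 0.0428), and CRK, an adaptor, was the gene called lower on miR-565 (-0.28, limma adjusted p = 0.0389). Without miR-565 replicate 1, EGR1 (0.74, limma adjusted p = 0.0678) and CRK (-0.20, limma adjusted p = 0.0778) were lost on miR-565. EGR1 on miR-629* and FRS2 on miR-181d were still called (limma adjusted p = 0.00584 and 0.00833). These signs were not particular to those miRNAs. FRS2 was above 0 on every array (0.15 to 0.75), and EGR1 on every array but miR-766 replicate 3 (-0.22). CRK was below 0 on every array but miR-629* replicate 1 (0.04). EGR1 was dim, with antagomir signals of 10.6 to 29.9. As the dye was the same on all arrays, a dye effect and a treatment effect cannot be told apart here.

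Without that array the list counts were much higher, as were the shares of all probes. On miR-574-3p, 1, 1, 3, 3 and 1 genes were called higher and 0, 4, 1, 2 and 1 lower, against 18.5% of all probes. On miR-766 the counts were 1, 2, 3, 2 and 4 higher and 0, 3, 1, 0 and 2 lower, against 14.8%. On miR-629* they were 1, 1, 3, 4 and 6 higher and 1, 2, 1, 2 and 0 lower, against 31.6%. The co-receptors and binding proteins had 5 of 16 called lower and 0 higher on miR-181d, where the other lists had 0, 4, 3 and 3 higher and 0, 1, 2 and 2 lower, against 24.7%. On miR-565 there were 1, 0, 2, 2 and 0 higher and 0, 1, 0, 2 and 2 lower, against 12%.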

How the data were processed

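RNA of A549 cells on 15 dual-color arrays, 3 for each of 5 miRNAs, was grouped by the labels. The authors deposited the output of Agilent Feature Extraction 9.5.3.1 for each array, with coordinates in NCBI36. Its processed signals are deposited as intensity values, background-corrected and dye-normalized by the authors' software, beside mean and background intensity. The authors also deposited a log10 ratio and its error as a score, and flags. The deposited series table holds the same log10 ratio (largest difference 0).

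Ratios were taken as log2 of the processed Cy5 signal over the processed Cy3 signal, in R 4.3.3. Left out were 1639 control spots per array and 2296 flagged spots. Further, 12 probes with every spot flagged on a miRNA were dropped, and 0 spots were saturated. Repeated spots were averaged (10 spots for FGF2, of which 4 were flagged over all arrays). limma 3.58.1 (lmFit, eBayes with intensity trend) was fitted to all 15 arrays, with Benjamini-Hochberg adjustment over 31345 probes that were well above background on at least 3 arrays (either channel). A gene was read by its brightest probe. Channels were compared within a dye after quantile normalization. The genes and lists were chosen with earlier results of these data known. Of the lists, genes called on miR-574-3p and, for each other miRNA, the called gene with the largest ratio in each direction were named, and for likeness the 3 probes of highest r. Some results that these rules take in are not reported here.

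Alternatives in background correction, centering, weighting, slide or replicate block, dim-probe filter, probe choice and arrays left out were run. The fit was tested on simulated ratios with 200 changed probes among 31345 for miR-574-3p: it recovered 81.7% at a log2 size of 1 and 98.5% at 2, with 11 false among 199 called. The simulated noise was independent between arrays, with the same spread of a probe on all of them. Shared slides and the wider spread of miR-565 replicate 1 were not simulated, so these rates may not hold for the real arrays. Precision depends on brightness: the median SD of the log2 ratio was 0.52 for probes of mean signal under 20 and 0.13 at 1000 or more.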

Additional observations from a re-analysis of the deposited data

Results flagged for a closer look

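FGFR1 A_23_P219105 and A_24_P4171 were flagged because their antagomir signals on miR-574-3p differed from those of the other miRNAs in the same dye, by -0.37 and -0.27 (log2). FGFRL1 A_23_P92349 (F = 10.4) and FGFR1 A_23_P219105 (F = 14) were flagged because their antagomir signals differed among the 4 other miRNAs. SOS1 and NRAS were flagged because their log2 ratios on miR-574-3p differed from the mean of the other 4 by 0.65 and -0.32. Their causes were not tested.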

How the results depend on the processing

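The log2 ratios of FGF9 and FGFRL1 on miR-574-3p, which chose the genes, were computed under 17 settings. They ran from -3.78 to -1.07 for FGF9 and from 1.37 to 2.41 for FGFRL1. Settings such as the dim-probe filters, the intensity trend and the replicate block could not change these ratios. The within-slide values are differences from another miRNA. The number of settings is thus no measure of support, and the cause of the movements was not tested. With normexp and loess FGF9 was -1.07 and FGFRL1 1.62. FGFRL1 was 2.41 under a slide block, 2.35 under a random slide block and 1.37 as the mean of its probes. Against miR-565 on the same slide FGF9 was -3.78 and FGFRL1 2.33, and against miR-629* FGF9 was -1.58. Leaving out 1 array gave -3.34 to -2.76 and 2.11 to 2.25. Genes called on miR-629* and miR-181d were 1 and 1 with normexp and with error weights. Under the slide block they were 2 on miR-574-3p, 2 on miR-766 and 4 on miR-181d, and the difference of FGF2 from the rest on miR-574-3p turned from 0.03 to -0.33; the slide 1 term then rests on miR-565 replicate 1. Leaving out 1 array gave 0 to 1 genes called on miR-574-3p, 0 to 2 on miR-766, 0 to 3 on miR-629*, 0 to 1 on miR-565 and 0 to 3 on miR-181d, the highest counts each without miR-565 replicate 1. With the replicate block 0 genes were called on each miRNA. Arrays of the same number correlated in their deviations from -0.51 to 0.57 (median 0.11). Arrays of different numbers correlated from -0.61 to 0.52 (median -0.03). The ranges overlap, and whether the numbers pair arrays was not tested. The fits without an array for the F test, the channels and the lists were chosen after seeing the data. Slides as a random block had a correlation of 0.73. FGF9 signals are near background outside the miR-574-3p antagomir cells, which limits its ratios there. The FGFR1 differences in the antagomir channel were called under both the slide block and percentile scaling.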
